A study of Saccharomyces cerevisiae with 12 samples.

Results

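Messenger RNA of a wine yeast late in bottle fermentation was compared with that of the same strain in growth, using 6 of the 12 arrays of the series. The day 19 group holds 3 arrays of EC1118, a commercial diploid wine strain of Saccharomyces cerevisiae, taken from sealed bottles on day 19, after ethanol had risen by 1.27%. The reference group holds 3 arrays of EC1118 grown without stress at 28 °C in YPD, a rich glucose medium, and taken in mid-exponential phase at an optical density of 1.0. The other 6 arrays come from bottles at day 7 and day 15. All bottles belong to the second fermentation, in which still base wine is fermented again to make it sparkling. The inoculum had first been adapted to ethanol, the wine received 20 g/L of sucrose, and 350 mL bottles stood unstirred at 16 °C for about 40 days. No genetic change or drug distinguished the groups, and both used 1 strain. They differed at once in medium, ethanol, temperature, vessel and growth phase, so the parts of these factors cannot be told apart. The labels call the bottle samples separate bottling assays, and they do not say whether the reference replicates were separate cultures. The tests below pool the spread within the 4 groups (12 arrays), so their p-values rest partly on reference spread that may be technical. This holds for comparisons between bottle groups too.

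As background, budding yeast growing on glucose ferments it to ethanol and spends much of its transcription on ribosomes. Glucose represses the genes for respiration, for gluconeogenesis and for the use of other carbon sources, through the kinase Snf1 and the repressor Mig1. When sugar or nitrogen runs low, protein kinase A and TOR signalling fall, the stress factors Msn2 and Msn4 enter the nucleus, ribosome genes are turned down and cells leave the division cycle. In sparkling wine these late cells meet ethanol, low pH, cold, carbon dioxide pressure and very little nitrogen or oxygen, and their later self-digestion gives the wine part of its character.

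The arrays were checked before any gene was read. All values are log2 RMA values, so a difference of 1 is a doubling. The 3 reference arrays correlated across genes at r = 0.987 to 0.997, and the day 19 arrays at 0.817, 0.847 and 0.939. Day 19 replicate 1 stood apart: 1363 genes (25.01%) lay more than 1 log2 unit from the mean of the other two day 19 arrays. The same count was 555 for day 19 replicate 2, 807 for day 19 replicate 3 and 9 to 53 for the reference arrays. Per gene, the median standard deviation was 0.118 in the reference and 0.428 at day 19, or 0.244 over day 19 replicates 2 and 3. List counts that changed by over 1.5 times without replicate 1 are given with and without it. Other values, among them list medians and log2 changes of single genes, also shifted without it. Only some of those are given both ways. It was singled out from these same data, so values without it are no separate test. The 17 ribosomal RNA probe sets averaged 12.3 ± 0.79 at day 19 and 6.40 ± 1.34 in the reference (SD, n = 3 each). The spiked poly-A controls, which are added during labelling, averaged 10.87, 10.15 and 3.98 on the reference arrays and 7.66, 6.58 and 6.50 on the day 19 arrays. Among 8 genes with control probe sets for both ends of the transcript, the log2 difference of 3' minus 5' signal, a sign of RNA integrity and labelling, was higher on every day 19 array than on every reference array for 4. It was 0.39 to 0.54 against 0.19 to 0.28 for ACT1, 1.05 to 1.30 against 0.58 to 0.65 for SPT15, 0.89 to 1.51 against 0.67 to 0.80 for EAF5 and -0.94 to -0.76 against -1.58 to -1.19 for URA3. It was lower at day 19 for RIP1, at -0.10 to -0.05 against 0.26 to 0.29, and the groups overlapped for the other 3. The part of these technical values in the results was not tested. In the reference HXT1 and HXT3, low-affinity glucose transporters, lay at 12.26, 12.33 and 12.26 and at 13.68, 13.69 and 13.62, and ADH2 and FBP1, which glucose represses, at 5.97, 6.46 and 6.61 and at 5.33, 5.76 and 5.32.

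Of 5449 genes tested, 1238 (22.7%) were higher at day 19 and 1134 (20.8%) lower, at a Benjamini-Hochberg adjusted p under 0.05 from limma. In all 43.5% of the genes were called. Changes of at least 2-fold were found in 928 of the higher and 742 of the lower genes, while the median log2 change of all genes was -0.03, with quartiles of -0.66 and 0.73. The 3 day 19 arrays lay wholly above or below the 3 reference arrays for 59.5% of all genes, and for 1202 of the higher and 1123 of the lower calls. Without day 19 replicate 1 the counts were 1303 and 1153, and 1089 and 940 of the original calls remained. Leaving out 1 reference array gave 871 to 1008 higher and 711 to 767 lower genes, with the lower count of 1134 moving by over 1.5 times to 729 without reference replicate 1 and 711 without reference replicate 2. Median coding length was 1083 bases for higher genes, 1455 for lower genes and 1236 for all. Arrays of whole populations cannot tell fewer cells of one kind from less RNA per cell.

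**Figure D1:**
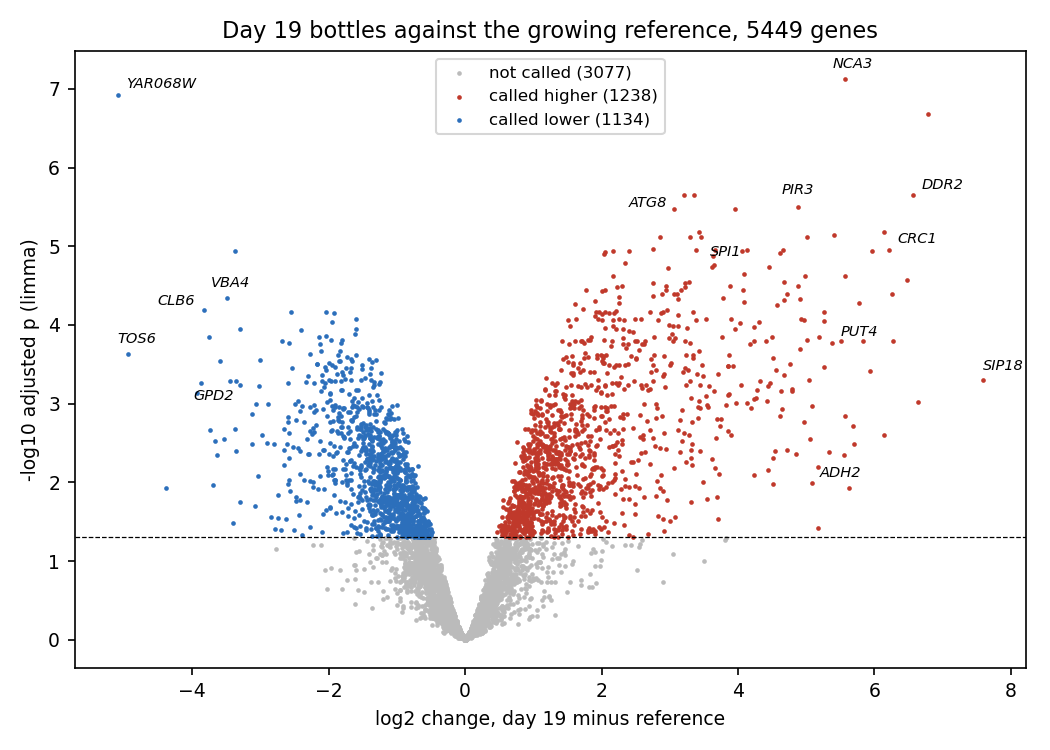
Log2 change from the reference to day 19 (horizontal axis) against the -log10 adjusted p of limma (vertical axis) for 5449 genes, with 1238 called higher in red, 1134 called lower in blue and the rest in grey. The dashed line marks an adjusted p of 0.05, and the rises reach further (SIP18, 7.59) than the falls (YAR068W, -5.09).

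The 15 largest rises were ranked among called genes whose groups did not overlap and whose probe set names mark no shared sequence. The same holds for the falls below. SIP18, a hydrophilin made under drying and salt stress, measured 5.70, 5.37 and 5.90 in the reference and 14.27, 13.19 and 12.28 at day 19. Every day 19 array was far above every reference array, a log2 change of 7.59 (SE 1.13, adjusted p = 0.00051) or 192-fold. DDR2, a stress gene of the Msn2 and Msn4 regulon, measured 7.19, 6.78 and 7.49 in the reference and 14.11, 13.53 and 13.53 at day 19. All 3 bottles were far above the reference, a log2 change of 6.57 (SE 0.40, adjusted p = 2.2e-06). NCA3, of the SUN family of wall and mitochondrial proteins, measured 8.26, 7.64 and 8.06 in the reference and 13.47, 13.64 and 13.56 at day 19, so the bottles lay close together, far above the reference. Its adjusted p, 7.4e-08 for a log2 change of 5.57, was among the lowest of the comparison. GRE1, another hydrophilin, changed by 5.69 and MOH1, needed for survival in stationary phase, by 5.78. YKL107W, an aldehyde reductase, was above background on no reference array and rose at least 48.1-fold. The other genes among the 15 largest rises were SHH3 (6.64), a relative of a succinate dehydrogenase subunit, which was above background on 1 of 3 reference arrays, YIG1 (6.25), which affects glycerol production and was above it on 2, RGI2 (5.63), a gene of respiratory growth, and the uncharacterised YHR033W (6.48), besides the transport and peroxisome genes below.

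The 15 largest falls included the cyclins CLB1, CLB2 and CLB6 and the wall enzymes CHS2 and UTR2, described below. YAR068W, an uncharacterised subtelomeric gene, measured 13.27, 13.13 and 13.15 in the reference and 8.47, 7.73 and 8.08 at day 19. Its bottle values all lay far under the reference, a log2 change of -5.09 (SE 0.21, adjusted p = 1.2e-07) or 34.1-fold lower. TOS6, a cell wall protein gene of the G1 factor SBF, measured 12.43, 12.43 and 12.22 in the reference and 7.70, 7.26 and 7.30 at day 19, a log2 change of -4.94 (SE 0.65, adjusted p = 0.00023). AAC3, the ADP/ATP carrier known for its role without oxygen, measured 12.24, 12.05 and 11.83 in the reference and 6.53, 9.11 and 8.87 at day 19. It was lowest in replicate 1 yet below the reference in all 3 bottles (-3.87). PHO3 (-3.75), an acid phosphatase repressed by thiamine, PGM1 (-3.60), the minor phosphoglucomutase, MKC7 (-3.53), a yapsin protease of the cell surface, VBA4 (-3.49), a membrane protein of the vacuolar transporter family, TOS4 (-3.64), a chromatin-binding target of SBF, and AIM20 (-4.39) fell as well. GPD2, the glycerol-3-phosphate dehydrogenase that balances redox without oxygen, measured 9.84, 9.86 and 12.07 in the reference and 7.23, 6.80 and 7.41 at day 19. Reference replicate 3 was its highest array by a wide margin (log2 change -3.44, SE 0.52, adjusted p = 0.00052).

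**Figure D2:**
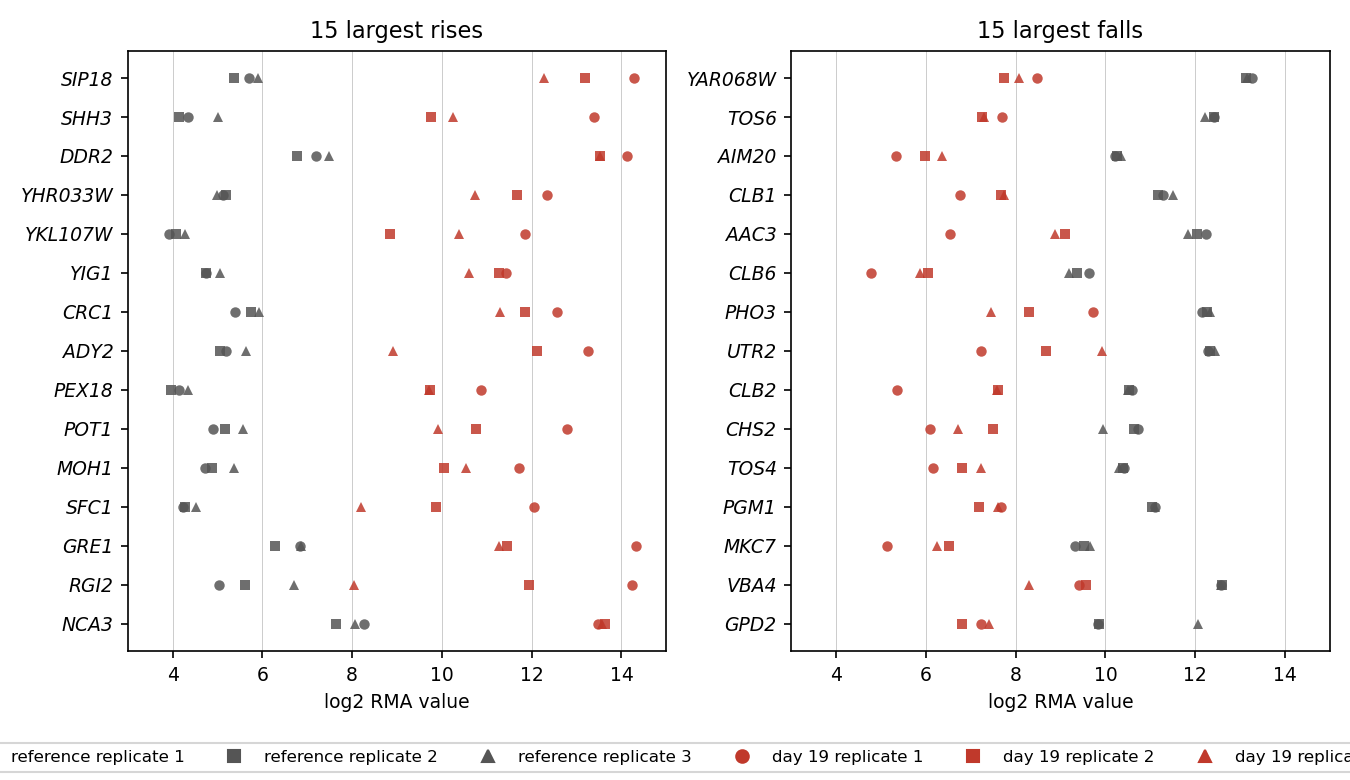
Log2 RMA values on the 3 reference (grey) and 3 day 19 (red) arrays, with 1 symbol per replicate. Shown are the 15 genes with the largest called rise (left) and the 15 with the largest called fall (right). Ranking took only probe sets whose names mark no shared sequence. By the ranking rule no gene shown has overlapping groups. Day 19 replicate 1 (circle) is the highest bottle for SIP18 at 14.27 and RGI2 at 14.24.

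Respiration genes stood higher almost as a block. Of 40 measured genes for the respiratory chain or the ATP synthase, 38 rose and none fell, with a median log2 change of 1.48 against -0.03 for all genes. The 3 bottles were alike in this, with medians of 1.39, 1.504 and 1.34 above the reference mean. QCR10, a subunit of the cytochrome bc1 complex, measured 10.92, 10.998 and 11.38 in the reference and 13.37, 13.52 and 13.59 at day 19 (log2 change 2.39, SE 0.19, adjusted p = 1.2e-05). CYT1, cytochrome c1 of the same complex, measured 11.07, 10.74 and 10.85 in the reference and 12.71, 13.41 and 13.30 at day 19, and SDH2, the iron-sulfur subunit of succinate dehydrogenase, 10.95, 10.996 and 10.93 in the reference and 13.70, 12.89 and 13.05 at day 19. All 3 bottles were above all 3 reference arrays for each of these genes, by changes of 2.26 for CYT1 and 2.25 for SDH2. NDE2, an external NADH dehydrogenase, changed most (4.84) and least evenly, at 12.98, 10.37 and 8.98 in the bottles. CYC7, the minor form of cytochrome c, rose by 2.30. Of 13 measured genes of the tricarboxylic acid cycle, 8 rose and none fell (median 1.10). Without day 19 replicate 1, 1 of them fell and the median was 0.75. They included CIT1, the mitochondrial citrate synthase (1.42), IDH1 of isocitrate dehydrogenase (1.41) and KGD4 of the 2-oxoglutarate dehydrogenase (1.61). CIT3, a minor citrate synthase, changed by 4.27. Mitochondrial ribosomal protein genes mostly did not pass the test: 9 of 71 rose (12.7%) and 2 fell (2.8%). Both were below the shares of all genes, 22.7% and 20.8%. The median was 0.08, or 0.21 without day 19 replicate 1. MRPS17 (1.27) was the largest rise of this list and MRPL4 (-1.22) the largest fall. Without day 19 replicate 1 the risen count of this list was 14.

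Most genes for making sugar from small carbon compounds rose. Of 20 glyoxylate cycle and gluconeogenesis genes, 15 rose and 2 fell, with a median of 3.15, or 2.77 without day 19 replicate 1. FBP1, fructose-1,6-bisphosphatase, measured 5.33, 5.76 and 5.32 in the reference and 13.38, 10.53 and 9.14 at day 19. PCK1, phosphoenolpyruvate carboxykinase, measured 6.42, 5.86 and 7.04 in the reference and 13.92, 11.54 and 9.37 at day 19, and MLS1, malate synthase, 6.28, 6.03 and 6.15 in the reference and 13.25, 9.85 and 9.52 at day 19. In all 3 genes replicate 1 was far above the other bottles, and every bottle was above every reference array. Their log2 changes were 5.55 for FBP1 (adjusted p = 0.0044), 5.17 for PCK1 (adjusted p = 0.0064) and 4.72 for MLS1 (adjusted p = 0.0039). ADY2, the acetate transporter, measured 5.18, 5.06 and 5.64 in the reference and 13.25, 12.12 and 8.92 at day 19, and its bottles were widely spread (log2 change 6.14, SE 1.21, adjusted p = 0.0025). SFC1, the mitochondrial succinate and fumarate carrier, was above background on no reference array and rose at least 38.4-fold. The list's median was 4.55, 2.58 and 2.83 in replicates 1, 2 and 3. The genes that fell were MAE1, the mitochondrial malic enzyme (-1.18), and PYC2, a pyruvate carboxylase (-1.12). The call of MAE1 was lost without reference replicate 1 or 2 (log2 change -1.10 to -1.07, adjusted p = 0.057 to 0.062), which leaves 1 fall in the list.

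Most genes of fatty acid breakdown rose. Of 31 measured genes of the peroxisome and beta-oxidation, 27 rose and none fell, with a median of 1.72. Without day 19 replicate 1, 22 rose and the median was 1.27. CRC1, the mitochondrial carnitine carrier, measured 5.39, 5.75 and 5.93 in the reference and 12.56, 11.85 and 11.29 at day 19 (log2 change 6.21, SE 0.49, adjusted p = 1.1e-05). POT1, the thiolase that ends each round of beta-oxidation, measured 4.90, 5.18 and 5.57 in the reference and 12.79, 10.75 and 9.91 at day 19 (log2 change 5.93, SE 0.85, adjusted p = 0.00039). PEX18, which brings that thiolase into the peroxisome, was above background on no reference array and rose at least 40.3-fold. For these 3 genes no bottle overlapped a reference array, and replicate 1 was the highest. POX1, the acyl-CoA oxidase that starts the pathway, changed by 4.28, CTA1, the peroxisomal catalase, by 4.97, and SPS19, a dienoyl-CoA reductase, by 3.67. Fatty acid synthesis went the other way in part. Of 16 genes, 7 fell and 2 rose (median -0.67, or -0.43 without day 19 replicate 1). ELO2, an elongase of long chains, measured 12.19, 12.14 and 12.28 in the reference and 9.37, 9.48 and 8.36 at day 19, below the reference in every bottle (log2 change -3.13, SE 0.55, adjusted p = 0.0013). ELO3 (-2.28), a related elongase, PHS1 (-1.42), a dehydratase of the same cycle, and FAA3 (-1.496), an acyl-CoA synthetase, fell too. FAA1, the main acyl-CoA synthetase for imported fatty acids, rose by 2.94, and SPT23, a membrane-bound activator of the desaturase gene, by 0.95. OLE1, that desaturase, was 13.40, 13.40 and 13.37 in the reference and 13.88, 14.08 and 14.05 at day 19 and did not pass the test (adjusted p = 0.16).

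Glycolysis genes moved in both directions, in shares near those of all genes. Of 16 measured 3 rose, 3 fell and 10 were not called, with a median of 0.04, which turned to -0.05 after quantile normalization and to -0.04 with the trend on coding length removed. The genes called were GLK1, HXK1, TDH1, HXK2, PFK1 and PFK2. GLK1, glucokinase, measured 11.63, 11.83 and 12.07 in the reference and 13.49, 13.28 and 13.34 at day 19 and rose by 1.53. HXK1, a hexokinase, rose by 1.06 and TDH1, a minor glyceraldehyde-3-phosphate dehydrogenase, by 0.88. HXK2, the hexokinase of rapid glucose growth, measured 13.49, 13.51 and 13.55 in the reference and 9.73, 12.35 and 12.17 at day 19, lowest in replicate 1 (log2 change -2.10, SE 0.76, adjusted p = 0.043). The call of HXK2 was lost without day 19 replicate 1 (log2 change -1.25, adjusted p = 0.14). It was also lost without reference replicate 1, 2 or 3, though the log2 change stayed at -2.11 to -2.08 (adjusted p = 0.0935 to 0.097). PFK1 and PFK2, the subunits of phosphofructokinase, fell by 1.14 and 1.19 on the log2 scale. TDH3, glyceraldehyde-3-phosphate dehydrogenase, lay at 14.51, 13.50 and 14.01 at day 19 and 14.44, 14.46 and 14.45 in the reference (adjusted p = 0.21).

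Several genes that use ethanol and acetate rose, while PDC1 and ADH1 of ethanol production did not pass the test. PDC1, the main pyruvate decarboxylase, measured 14.15, 14.17 and 14.05 in the reference and 14.16, 13.98 and 14.09 at day 19, and ADH1, the alcohol dehydrogenase that makes ethanol, 14.12, 14.16 and 13.98 in the reference and 13.72, 14.15 and 14.13 at day 19. The groups overlapped for both, with log2 changes of -0.05 (SE 0.17) and -0.09 (SE 0.18). ADH2, which oxidises ethanol, measured 5.97, 6.46 and 6.61 in the reference and 14.06, 12.43 and 7.78 at day 19. The bottles ran from a little above the reference in replicate 3 to far above it in replicate 1 (log2 change 5.08, SE 1.32, adjusted p = 0.01). In the list of ethanol and acetate genes 7 of 16 rose and 1 fell. The others that rose included ACH1, a mitochondrial CoA-transferase for acetate (2.46), ALD4, the main mitochondrial aldehyde dehydrogenase (1.82), and PDC6, a minor pyruvate decarboxylase (3.31). ADH4 fell by 1.36 on the log2 scale. The call of PDC6 was lost without reference replicate 2 (log2 change 3.18, adjusted p = 0.057). In the Ehrlich pathway and ester list, which makes aroma compounds, 6 of 15 rose and 1 fell. AAD10, a putative aryl-alcohol dehydrogenase, measured 8.51, 8.36 and 8.76 in the reference and 11.58, 11.71 and 12.01 at day 19 (3.22). ATF1, the alcohol acetyltransferase that makes isoamyl acetate, measured 11.34, 11.10 and 11.14 in the reference and 9.67, 10.23 and 9.59 at day 19, lower in all 3 bottles (log2 change -1.36, SE 0.28, adjusted p = 0.0034).

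Sugar uptake genes rose more often than they fell. Of 20 hexose transporters and sensors 9 rose and 1 fell, with a median of 1.18. HXT1, the low-affinity transporter of high glucose, was the gene that fell and measured 12.26, 12.33 and 12.26 in the reference and 7.73, 10.996 and 9.59 at day 19 (log2 change -2.84, SE 0.92, adjusted p = 0.027). HXT3 was 9.14, 13.36 and 13.27 at day 19, with replicate 1 alone far under the reference (adjusted p = 0.18). HXT5, a transporter of slow growth, measured 5.92, 5.40 and 6.21 in the reference and 13.08, 7.53 and 7.44 at day 19, above the reference on every array and highest in replicate 1, yet it did not pass the test (log2 change 3.504, SE 1.62, adjusted p = 0.1). HXT14 was above background on no reference array and rose at least 4.62-fold. SNF3, the sensor of low glucose, rose by 1.66, and HXT8, above background on 1 of 3 reference arrays, changed by 2.26. SUC2, invertase, which splits the added sucrose, measured 9.88, 10.13 and 10.16 in the reference and 12.82, 11.98 and 11.63 at day 19. All bottles were above all reference arrays (log2 change 2.08, SE 0.33, adjusted p = 0.00078), which is 4.24-fold. In the sucrose and maltose list as a whole 3 of 9 measured genes rose (33.3%), against 22.7% of all genes. The count was 5 without day 19 replicate 1 and 1 without reference replicate 1 or 2. Among signalling genes of glucose, protein kinase A and Snf1, 8 of 27 rose (29.6%) and 2 fell (7.4%), against 22.7% and 20.8% of all genes. The risen count was 5 without day 19 replicate 1 or reference replicate 1 and 4 without reference replicate 2. The fallen count was 5 without day 19 replicate 1, 1 without day 19 replicate 3 and 0 without reference replicate 1, 2 or 3. REG2, a phosphatase subunit acting on Snf1, measured 6.04, 6.06 and 6.77 in the reference and 12.59, 11.004 and 10.32 at day 19 (log2 change 5.01, SE 0.61, adjusted p = 0.00015). PDE1, a cyclic AMP phosphodiesterase, rose by 2.18 and RIM15, the kinase of entry into quiescence, by 1.54. MIG2, a glucose repressor, changed by -3.40, at 4.58, 8.25 and 7.93 in the bottles, and was above background on 2 of the 3. The call of HXT1 was lost without day 19 replicate 1 or 3 or reference replicate 1, 2 or 3 (log2 change -2.92 to -1.99, adjusted p = 0.057 to 0.088), and without day 19 replicate 2 the transporter list held 2 falls. The call of MIG2 was lost without day 19 replicate 1 or reference replicate 1, 2 or 3 (log2 change -3.49 to -2.23, adjusted p = 0.071 to 0.11).

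Most genes of glycogen metabolism rose. Of 15 glycogen genes 11 rose and 1 fell (median 1.48). There were 8 rises and a median of 1.24 without day 19 replicate 1, and 7 rises without reference replicate 1. GAC1, the phosphatase subunit that activates glycogen synthase, measured 6.59, 7.53 and 8.12 in the reference and 11.55, 11.74 and 11.63 at day 19, with bottles close together (log2 change 4.23, SE 0.49, adjusted p = 0.00011). SGA1, a glucoamylase of sporulation that breaks glycogen, measured 6.005, 5.95 and 6.12 in the reference and 9.27, 9.97 and 9.42 at day 19 (3.53), and GIP2, another phosphatase subunit, rose by 3.18. GSY2, the main glycogen synthase, changed by 0.84 (adjusted p = 0.031). The call of GSY2 was lost without day 19 replicate 2 or 3 or reference replicate 1 or 2 (log2 change 0.61 to 0.85, adjusted p = 0.061 to 0.11). Of 7 trehalose genes 3 rose (42.9%), or 5 without day 19 replicate 3, and 1 fell (14.3%), against 22.7% and 20.8% of all genes. Those that rose included the trehalases ATH1 (2.80) and NTH2 (2.22), which break trehalose down. TPS3, a regulatory subunit of synthesis, fell by 1.19 on the log2 scale, while TSL1, a related subunit, rose by 1.07. The call of TSL1 was lost without reference replicate 2 (log2 change 0.99, adjusted p = 0.054). TPS1, trehalose-6-phosphate synthase, measured 11.87, 11.86 and 11.78 in the reference and 11.97, 12.12 and 12.32 at day 19 (adjusted p = 0.2). Glycerol and osmotic genes split. STL1, the glycerol importer, measured 4.58, 4.68 and 5.17 in the reference and 10.81, 10.32 and 7.69 at day 19. All bottles were above the reference, where 1 of 3 arrays was above background (log2 change 4.797, SE 0.75, adjusted p = 0.00065). GUT2, which takes glycerol-3-phosphate into respiration, rose by 3.07, and GCY1, a glycerol dehydrogenase, by 2.36. HOG1, the osmotic stress kinase, fell by 1.19 on the log2 scale, and GPD1, the dehydrogenase of osmotic glycerol, lay at 13.53, 12.58 and 12.15 at day 19 and 12.93, 12.95 and 12.90 in the reference, with overlapping groups. In all 6 of 16 rose (37.5%) and 5 fell (31.25%), against 22.7% and 20.8% of all genes. The fallen count was 3 without day 19 replicate 3 or reference replicate 1 or 3. The call of HOG1 was lost without reference replicate 1, 2 or 3 (log2 change -1.21 to -1.18, adjusted p = 0.051 to 0.061).

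**Figure D3:**
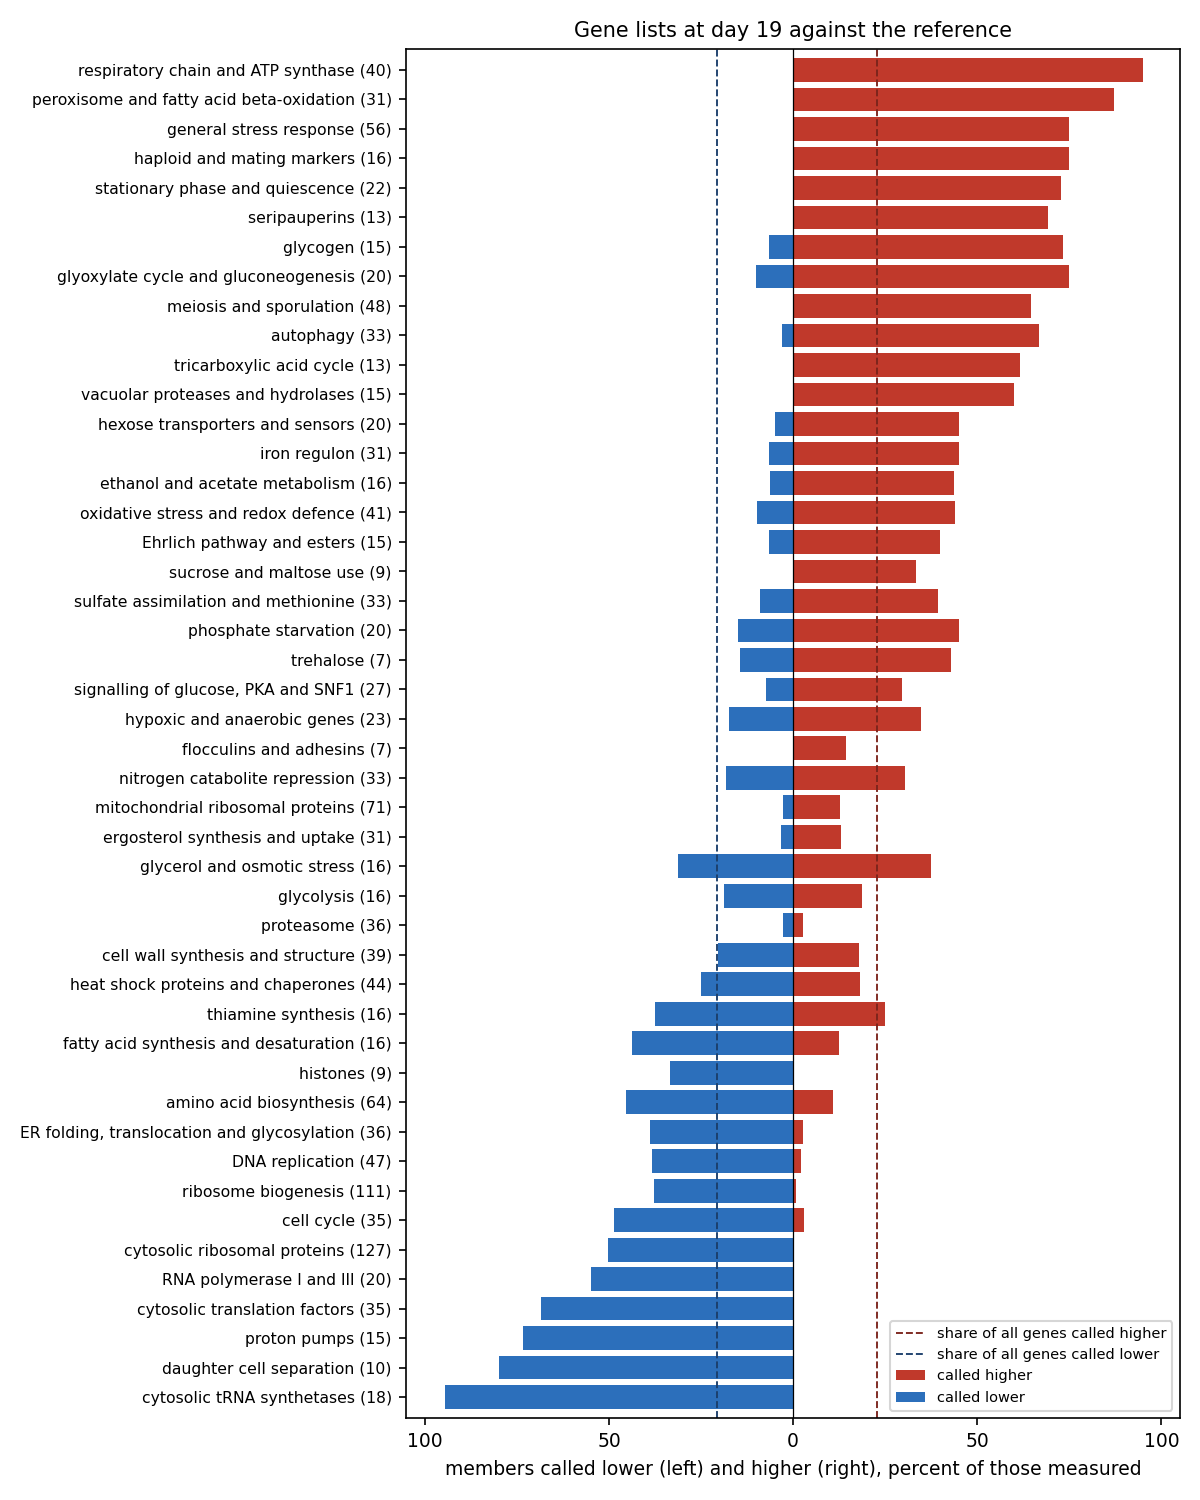
Share of the measured members of each gene list (number in brackets) called higher (red, right) and lower (blue, left) at day 19 against the reference, in percent. Dashed lines mark the shares of all genes, 22.7% higher and 20.8% lower, and the lists run from respiration (38 of 40 higher) to tRNA synthetases (17 of 18 lower).

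General stress and stationary phase genes rose without exception among those called, and heat shock genes did not. Of 56 general stress genes 42 rose and none fell, with a median of 2.55, or 1.84 without day 19 replicate 1. HSP12, a small membrane-protecting stress protein, measured 8.35, 8.04 and 8.40 in the reference and 14.37, 13.22 and 11.23 at day 19. Its bottles were widely spread and all were above the reference (log2 change 4.68, SE 0.68, adjusted p = 0.00043). CTT1, the cytosolic catalase, measured 7.94, 8.97 and 9.31 in the reference and 13.58, 13.66 and 13.002 at day 19 (4.67). TKL2, a transketolase of stress, changed by 5.34. Of 22 measured stationary phase genes 16 rose and none fell (median 2.60, or 2.06 without day 19 replicate 1). SPG1, a gene of high temperature survival in stationary phase, changed by 4.51, and SNO4, whose probe set shares sequence with other genes, by 6.79. SPI1, a wall protein made in stationary phase, measured 10.22, 10.01 and 10.25 in the reference and 13.23, 13.85 and 13.79 at day 19 (log2 change 3.46, SE 0.26, adjusted p = 7.6e-06).

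Among 44 heat shock and chaperone genes 8 rose (18.2%) and 11 fell (25%), near the shares of all genes. Their median was -0.37, or -0.12 without day 19 replicate 1, and -0.47, -0.60 and 0.33 in the 3 bottles, so replicate 3 alone was positive. HSP26, a small heat shock protein, measured 11.19, 10.95 and 10.96 in the reference and 13.94, 13.37 and 14.18 at day 19, even across the bottles (log2 change 2.79, SE 0.40, adjusted p = 0.00038). SSA4, an inducible Hsp70, measured 9.22, 9.36 and 9.47 in the reference and 12.35, 10.03 and 13.54 at day 19. Here day 19 replicate 3 was the highest and replicate 2 was near the reference (log2 change 2.63, SE 0.74, adjusted p = 0.015). The same order of bottles held for SSA1 (12.97, 12.35 and 14.30 at day 19 and a change of 1.72), SSE2 (2.20) and HSP78 (1.69), chaperones of the cytosol and the mitochondrion. The call of SSA4 was lost without day 19 replicate 3 (log2 change 1.84, adjusted p = 0.056). The call of HSP78 was lost without day 19 replicate 3 or reference replicate 1, 2 or 3 (log2 change 0.94 to 1.75, adjusted p = 0.086 to 0.17). The list's risen count was 13 without day 19 replicate 2 and 5 without day 19 replicate 3 or reference replicate 2, and its fallen count 6 without reference replicate 1 or 3 and 5 without reference replicate 2. Of 41 genes of oxidative stress defence 18 rose and 4 fell. SRX1, sulfiredoxin, measured 6.34, 6.15 and 6.63 in the reference and 9.59, 9.51 and 9.89 at day 19 (log2 change 3.29, SE 0.24, adjusted p = 7.6e-06). GPX1, a glutathione peroxidase, rose by 2.89 and OYE3, an NADPH oxidoreductase, by 3.15. GSH2, glutathione synthetase, and TRX1, a cytosolic thioredoxin, fell by 1.98 and 1.48 on the log2 scale.

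Most autophagy genes rose, and so did many vacuolar hydrolases. Of 33 autophagy genes 22 rose and 1 fell, with a median of 1.38. Without day 19 replicate 1, 18 rose and the median was 1.09. ATG8, the lipid-linked protein that builds the autophagosome, measured 9.66, 9.84 and 10.07 in the reference and 13.01, 12.69 and 13.07 at day 19. The 3 bottles lay close together, well above the reference (log2 change 3.06, SE 0.20, adjusted p = 3.4e-06). ATG39, the receptor that sends nuclear envelope and endoplasmic reticulum to the vacuole, measured 6.05, 5.73 and 6.18 in the reference and 12.27, 10.13 and 10.68 at day 19 (log2 change 5.04, SE 0.75, adjusted p = 0.00051). ATG36, the receptor for peroxisomes, changed by 2.50 and ATG34, a receptor of selective transport to the vacuole, by 3.53. ATG27, a membrane protein of the pathway, fell by 0.65 on the log2 scale. The call of ATG27 was lost without day 19 replicate 2 or reference replicate 1, 2 or 3 (log2 change -0.65 to -0.52, adjusted p = 0.051 to 0.062). Of 15 measured vacuolar hydrolase genes 9 rose and none fell. PRB1, vacuolar protease B, measured 10.62, 10.91 and 10.50 in the reference and 12.78, 13.15 and 13.02 at day 19 (2.30), AMS1, an alpha-mannosidase, rose by 3.35, and the protease inhibitors PAI3 and PBI2 by 4.55 and 2.17. UBI4, the stress polyubiquitin gene, measured 11.10, 11.28 and 11.33 in the reference and 13.28, 13.11 and 13.41 at day 19 (log2 change 2.03, SE 0.17, adjusted p = 1.3e-05). The proteasome list held 34 genes of 36 that were not called, and the number that fell was 3 without day 19 replicate 1 and 0 without day 19 replicate 2 or 3 or reference replicate 1, 2 or 3. RPN4, the transcription factor of proteasome genes, rose to 12.47, 13.29 and 13.66 from 11.18, 11.19 and 11.29 (log2 change 1.92, SE 0.30, adjusted p = 0.00067), and RPN13, an ubiquitin receptor, changed by -0.99. The call of RPN13 was lost without day 19 replicate 2 or 3 or reference replicate 1, 2 or 3 (log2 change -1.08 to -0.79, adjusted p = 0.062 to 0.11).

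Many genes of protein synthesis fell, among them nearly all measured tRNA synthetases. Of 18 cytosolic tRNA synthetase genes 17 fell and none rose, with a median of -1.71. VAS1, which charges valine tRNA, measured 12.95, 12.93 and 12.88 in the reference and 11.11, 10.72 and 10.40 at day 19 (log2 change -2.18, SE 0.30, adjusted p = 0.00031). ILS1, for isoleucine, measured 13.10, 13.05 and 13.15 in the reference and 10.81, 11.40 and 11.22 at day 19 (-1.96), and GLN4, for glutamine, 11.94, 12.06 and 12.28 in the reference and 10.90, 9.85 and 8.82 at day 19 (-2.23). Each of these enzymes was lower in every bottle. Of 35 measured translation factors 24 fell and none rose (median -0.83). DED1, a helicase of initiation, measured 12.72, 12.92 and 12.70 in the reference and 10.75, 10.64 and 10.64 at day 19, nearly the same in all bottles (log2 change -2.10, SE 0.31, adjusted p = 0.00044). TIF4631, the scaffold eIF4G, changed by -2.21, GCD1 of eIF2B by -1.997, and NIP1 and PRT1 of eIF3 by -1.99 and -1.86. Of 127 cytosolic ribosomal protein genes 64 fell and none rose, with a median of -0.59. The 3 bottles gave medians of -0.38, -0.37 and -0.93, so replicate 3 was the lowest. RPS22A measured 13.64, 13.87 and 13.60 in the reference and 12.33, 12.70 and 11.04 at day 19 (-1.68), RPL9A 13.46, 13.61 and 13.53 in the reference and 12.39, 12.33 and 10.51 at day 19 (-1.79). In each, replicate 3 stood well below the other bottles. The count of 64 was 28 without day 19 replicate 3, 29 without reference replicate 1 or 3 and 24 without reference replicate 2.

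Genes that build ribosomes fell in part. Of 111 ribosome biogenesis genes 42 fell and 1 rose (median -0.72). PWP1, a pre-ribosome assembly factor, measured 11.85, 11.94 and 11.84 in the reference and 9.62, 10.61 and 9.61 at day 19, and DIP2, of the small subunit processome, 11.98, 12.10 and 12.16 in the reference and 9.96, 10.83 and 9.73 at day 19. Replicate 2 was the highest bottle in both, and all bottles were below the reference (changes of -1.93 and -1.90). The list's medians by bottle were -0.96, -0.26 and -0.88, and its count of falls was 24 without day 19 replicate 3 or reference replicate 2 and 25 without reference replicate 3. The count of rises was 2 without day 19 replicate 1 and 0 without day 19 replicate 2 or reference replicate 1 or 2. UTP4 and UTP21, also of the processome, changed by -2.01 and -1.81, and KRE33, an RNA acetyltransferase, by -1.80. Of 20 subunits of RNA polymerases I and III, which make ribosomal and transfer RNA, 11 fell and none rose (median -0.93), the count being 7 without day 19 replicate 3 or reference replicate 1 or 3 and 6 without reference replicate 2. RPA135, the large subunit of polymerase I, measured 12.98, 12.96 and 12.86 in the reference and 10.98, 12.04 and 11.03 at day 19 (log2 change -1.58, SE 0.30, adjusted p = 0.0021), and RPA43 changed by -1.69. The ribosomal RNA control probe sets, given above with the array checks, read higher at day 19, and averaged 12.2 at day 7 and 12.4 at day 15. The part of labelling in this difference was not tested.

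Some genes of the secretory pathway and most proton pump genes fell. Of 36 genes of endoplasmic reticulum folding, translocation and glycosylation 14 fell and 1 rose, the fallen count being 9 without reference replicate 1 or 2 and 8 without reference replicate 3, and the risen count 4 without day 19 replicate 1 and 0 without day 19 replicate 2 or 3 or reference replicate 1, 2 or 3. PMT4, a protein mannosyltransferase, measured 12.02, 11.996 and 11.89 in the reference and 9.48, 10.16 and 9.92 at day 19 (log2 change -2.12, SE 0.27, adjusted p = 0.00021). STT3, the catalytic subunit of oligosaccharyl transferase, changed by -1.99 and SEC63 of the translocon by -1.74. Of 15 proton pump genes 11 fell and none rose (median -0.81), the count being 7 without day 19 replicate 1, 6 without reference replicate 1 and 5 without reference replicate 2 or 3. PMA1, the plasma membrane proton pump, measured 13.44, 13.54 and 13.35 in the reference and 11.10, 12.39 and 12.61 at day 19, lowest in replicate 1 (log2 change -1.41, SE 0.36, adjusted p = 0.01). VPH1, a vacuolar ATPase subunit, measured 13.50, 13.57 and 13.44 in the reference and 12.24, 12.37 and 12.12 at day 19, close together in the bottles (log2 change -1.26, SE 0.19, adjusted p = 0.00056). PMA2, another plasma membrane pump, was 12.75, 7.56 and 6.78 at day 19 against 7.77, 7.78 and 7.59, so only replicate 1 lay above the reference (adjusted p = 0.48).

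Many cyclin and septum genes fell. Of 35 measured cell cycle genes 17 fell and 1 rose (median -1.08, or -0.73 without day 19 replicate 1). There were 11 falls without reference replicate 1. CLB1, a mitotic cyclin, measured 11.29, 11.18 and 11.50 in the reference and 6.75, 7.68 and 7.75 at day 19 (log2 change -3.93, SE 0.63, adjusted p = 0.00074). CLB2, its close relative, measured 10.59, 10.53 and 10.51 in the reference and 5.36, 7.60 and 7.59 at day 19 (-3.69). CLB6, an S phase cyclin, measured 9.64, 9.37 and 9.19 in the reference and 4.78, 6.04 and 5.87 at day 19 (-3.83) and came near the array background in replicate 1. CLN2, the G1 cyclin of the START decision, measured 10.51, 10.47 and 10.50 in the reference and 6.41, 7.66 and 7.30 at day 19 (log2 change -3.37, SE 0.64, adjusted p = 0.0021). Each of these cyclins was lower in every bottle, and the other cyclins of the list are not described here. CDH1, which marks mitotic cyclins for destruction, rose by 0.91. Of 10 genes for daughter cell separation 8 fell and none rose, with a median of -2.18, or -1.80 without day 19 replicate 1. The fallen count was 5 without day 19 replicate 1 or reference replicate 1, 2 or 3. SUN4, a septum glucosidase, measured 11.39, 11.25 and 10.99 in the reference and 7.35, 8.86 and 8.47 at day 19 (log2 change -2.98, SE 0.59, adjusted p = 0.0025). EGT2 (-2.58) and SCW11 (-2.24), enzymes of the same septum, and DSE1 (-2.36), a daughter-specific protein, fell as well.

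Of 47 DNA replication genes 18 fell and 1 rose, the falls being 9 without reference replicate 1 and 10 without reference replicate 2, and the rises 4 without day 19 replicate 1. RNR1, the large subunit of ribonucleotide reductase, measured 12.23, 12.30 and 12.09 in the reference and 7.95, 9.52 and 9.96 at day 19 (log2 change -3.07, SE 0.51, adjusted p = 0.001). RNR3, the alternative large subunit made after DNA damage, measured 9.22, 8.84 and 8.64 in the reference and 11.001, 11.11 and 11.24 at day 19. It was even across the bottles and above the reference in all (log2 change 2.21, SE 0.26, adjusted p = 0.00011). CDC45 (-2.03) and MCM7 (-1.498), of the replicative helicase, and ORC2 (-1.39), of the origin recognition complex, fell. Among 9 measured histone genes 3 fell (33.3%), against 20.8% of all genes. The count was 1 without day 19 replicate 2 or 3 or reference replicate 1, 2 or 3. HTB2, a copy of histone H2B, fell furthest (log2 change -1.54, SE 0.42, adjusted p = 0.014). Of 39 cell wall genes 7 rose (17.9%) and 8 fell (20.5%), near the shares of all genes. PIR3, a cross-linked wall glycoprotein, measured 8.65, 8.91 and 8.87 in the reference and 13.51, 13.74 and 13.82 at day 19. All bottles lay close together and far above the reference (log2 change 4.88, SE 0.31, adjusted p = 3.1e-06). GSC2, the glucan synthase of stress and sporulation, rose by 2.98. CHS2, the chitin synthase of the primary septum, measured 10.72, 10.63 and 9.95 in the reference and 6.09, 7.49 and 6.72 at day 19 (log2 change -3.66, SE 0.75, adjusted p = 0.003), and UTR2, which links chitin to glucan, changed by -3.75. Of 7 measured flocculin and adhesin genes 1 passed the test, AGA1 (1.83), and 1 fell without day 19 replicate 2. FLO11, the flocculin of film and foam formation, was 9.98, 8.55 and 8.32 in the reference and 11.09, 8.71 and 9.98 at day 19, with overlapping groups (adjusted p = 0.49). The call of AGA1 was lost without day 19 replicate 2 or 3 or reference replicate 1, 2 or 3 (log2 change 1.21 to 1.88, adjusted p = 0.058 to 0.092).

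Most sporulation and mating genes rose. Of 48 meiosis and sporulation genes 31 rose and none fell, with a median of 1.505. RIM4, an RNA-binding regulator of meiosis, measured 5.61, 5.41 and 5.47 in the reference and 10.46, 10.78 and 10.82 at day 19. The bottles lay close together and far above the reference (log2 change 5.19, SE 0.63, adjusted p = 0.00014). MND1, a factor of meiotic recombination, was above background on no reference array, at 7.23, 7.59 and 9.12 at day 19, and rose at least 9.21-fold. SPO11, which makes the breaks that start that recombination, changed by 3.54 and was above background on 1 of 3 reference arrays. IME1, the master regulator of entry into meiosis, measured 5.68, 5.71 and 5.87 in the reference and 11.80, 8.28 and 7.81 at day 19, highest in replicate 1 (log2 change 3.54, SE 1.01, adjusted p = 0.016). After quantile normalization the list held 22 rises and 3 falls, with a median of 0.85. Of the 16 haploid and mating genes 12 rose and none fell (median 1.87). As background, a diploid such as EC1118 represses these genes. All 16 were above background on every day 19 array, and in the reference 12 were on every array and 2 on none. Their summed log2 values were 96.44 to 101.61 on the reference arrays and 117.56 to 134.10 at day 19. AGA2, the adhesion subunit of a-agglutinin, measured 4.29, 4.23 and 4.48 in the reference and 7.69, 7.55 and 8.04 at day 19 and rose at least 7.93-fold. GPA1, the pheromone G protein subunit, rose by 2.96, and STE3, the a-factor receptor, measured 5.93, 5.96 and 6.44 in the reference and 8.84, 8.65 and 8.36 at day 19 (2.50). After quantile normalization 7 of these 16 genes rose, with a median of 0.86. The part of a changed cell type in these rises was not tested.

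The proline use genes PUT1 and PUT4 rose, and amino acid synthesis genes fell more often than they rose. Of 33 measured genes under nitrogen catabolite repression 10 rose (30.3%) and 6 fell (18.2%), against 22.7% and 20.8% of all genes. The fallen count was 2 without reference replicate 1, 2 or 3. The list's median of 0.56 was 0.12 after quantile normalization. PUT4, the proline permease, measured 5.996, 5.60 and 6.23 in the reference and 11.56, 11.81 and 10.60 at day 19 (log2 change 5.38, SE 0.67, adjusted p = 0.00017). PUT1, proline oxidase, measured 10.09, 10.19 and 10.42 in the reference and 13.16, 13.39 and 13.48 at day 19 (log2 change 3.11, SE 0.31, adjusted p = 4.7e-05), and both were higher in every bottle. GDH3, a glutamate dehydrogenase of non-fermentative growth, changed by 5.09, and DAL80, a repressor of the regulon above background on 1 of 3 reference arrays, by 3.97. GAP1, the general amino acid permease, was 7.98, 7.99 and 7.91 in the reference and 10.41, 9.07 and 10.15 at day 19. All bottles were above the reference and it did not pass the test (log2 change 1.91, SE 1.13, adjusted p = 0.19). DIP5, the permease of acidic amino acids, was 12.44, 8.35 and 8.28 at day 19 against 11.47, 11.17 and 11.12, so replicate 1 was above and the other two below (adjusted p = 0.23). OPT2, an oligopeptide and glutathione transporter, fell by 3.09 on the log2 scale. The call of OPT2 was lost without reference replicate 1, 2 or 3 (log2 change -3.13 to -3.03, adjusted p = 0.051 to 0.057). Of 64 measured amino acid synthesis genes 29 fell and 7 rose, with a median of -0.68. SER2, the phosphatase that ends serine synthesis, measured 11.50, 11.59 and 11.59 in the reference and 9.18, 9.55 and 9.13 at day 19 (log2 change -2.27, SE 0.39, adjusted p = 0.0011). LYS9 of lysine synthesis changed by -2.13, and ARO8 and ARO7 of aromatic amino acid synthesis by -2.10 and -2.02. The arginine genes ARG3, ornithine carbamoyltransferase, and ARG4, argininosuccinate lyase, went up. ARG3 measured 7.87, 7.70 and 7.59 in the reference and 11.17, 12.55 and 13.34 at day 19 (log2 change 4.64, SE 0.73, adjusted p = 0.0007), and ARG4 rose by 1.93.

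Of 33 genes of sulfate assimilation and methionine 13 rose and 3 fell. MET2, homoserine acetyltransferase, measured 6.18, 6.73 and 7.06 in the reference and 10.93, 11.23 and 11.63 at day 19 (log2 change 4.61, SE 0.38, adjusted p = 1.2e-05), and STR3, cystathionine beta-lyase, 6.69, 6.05 and 6.59 in the reference and 10.99, 10.52 and 11.81 at day 19 (log2 change 4.66, SE 0.37, adjusted p = 1.1e-05). Both were well above the reference in every bottle. CYS3, which runs from cystathionine to cysteine, was lower, at 9.14, 10.83 and 11.47 against 13.04, 12.97 and 12.87 (log2 change -2.48, SE 0.70, adjusted p = 0.015), as was SAM1, an S-adenosylmethionine synthetase (-2.12). Of 31 iron regulon genes 14 rose and 2 fell (the fallen count was 1 without day 19 replicate 2 or 3 and 0 without reference replicate 1, 2 or 3). HMX1, heme oxygenase, measured 7.77, 7.96 and 8.77 in the reference and 11.45, 13.44 and 13.16 at day 19 (log2 change 4.52, SE 0.61, adjusted p = 0.00026). FIT2, a wall protein that holds iron carriers, changed by 3.75, TIS11, which destroys mRNAs of iron-using proteins, by 3.29, and CCC2, a copper transporter, by 2.02. Of 20 measured phosphate genes 9 rose and 3 fell, the risen count being 4 without day 19 replicate 3 or reference replicate 1, 3 without reference replicate 2 and 5 without reference replicate 3. PHO84, the high-affinity phosphate transporter, measured 7.21, 7.33 and 7.84 in the reference and 12.39, 9.62 and 10.83 at day 19 (log2 change 3.49, SE 0.90, adjusted p = 0.0098). Replicate 1 was the highest, as for PHO89, a sodium phosphate symporter (2.49), and SPL2 (2.80), which lowers low-affinity uptake. The low-affinity transporters PHO90 and PHO91 fell by 1.42 and 1.25 on the log2 scale. The call of PHO90 was lost without day 19 replicate 1 or 3 or reference replicate 1 or 2 (log2 change -1.41 to -1.03, adjusted p = 0.054 to 0.073). Thiamine genes also split, 4 up (25%) and 6 down (37.5%) of 16 measured, against 22.7% and 20.8% of all genes. The count up was 2 without day 19 replicate 2 or 3 or reference replicate 1, 2 or 3. THI7, the thiamine transporter, fell by 2.16 on the log2 scale and THI13, whose probe set shares sequence with its copies, rose by 3.90. INO1, which makes inositol for phospholipids, measured 8.11, 8.23 and 8.54 in the reference and 13.63, 13.54 and 13.48 at day 19, alike in all bottles (log2 change 5.26, SE 0.56, adjusted p = 6.8e-05).

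Sterol, wall and oxygen genes divided the bottles. As background, the seripauperins (PAU genes) and the TIR and DAN mannoproteins are wall proteins made without oxygen, and sterol synthesis needs oxygen. Of 13 measured seripauperins 9 rose and none fell, with a median of 2.18, and 10 of the 13 share probe sequence with other members. The list's medians were 0.31, 2.72 and 3.62 in replicates 1, 2 and 3. PAU5, whose probe set name marks no shared sequence, measured 8.44, 8.43 and 8.33 in the reference and 9.58, 14.23 and 14.10 at day 19. Replicate 1 was a little above the reference and the other bottles far above it (log2 change 4.23, SE 1.05, adjusted p = 0.0081). DAN1 measured 5.57, 4.86 and 5.59 in the reference and 5.14, 13.004 and 13.38 at day 19, so replicate 1 overlapped the reference (log2 change 5.17, SE 1.81, adjusted p = 0.038). TIR1, of the same wall family, measured 13.54, 13.44 and 13.32 in the reference and 7.9995, 13.50 and 12.71 at day 19, where replicate 2 was within the reference range, replicate 3 below it and replicate 1 far below (log2 change -2.03, SE 1.30, adjusted p = 0.23). Without replicate 1, 12 of the 13 seripauperins rose, with a median of 3.17. The call of DAN1 was lost without day 19 replicate 2 or 3 or reference replicate 1, 2 or 3 (log2 change 3.73 to 5.30, adjusted p = 0.078 to 0.14).

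Of 31 sterol genes 4 rose (12.9%) and 1 fell (3.2%), both below the shares of all genes, 22.7% and 20.8%. The list's medians were -0.64, 0.75 and 0.67 in the 3 bottles. The risen count was 10 without day 19 replicate 1 and 1 without day 19 replicate 2 or 3 or reference replicate 1, 2 or 3, and the fallen count 2 without day 19 replicate 1 or 2. ARE2, which esterifies sterols for storage, measured 9.28, 9.0002 and 9.05 in the reference and 9.51, 12.10 and 11.73 at day 19. UPC2, the activator of sterol uptake, measured 8.48, 8.17 and 8.24 in the reference and 8.39, 9.63 and 10.48 at day 19, overlapping the reference in replicate 1 (log2 change 1.21, SE 0.44, adjusted p = 0.043). ERG11, lanosterol demethylase, was 13.51, 13.54 and 13.46 in the reference and 12.999, 14.10 and 14.06 at day 19, with replicate 1 below and replicates 2 and 3 above the reference (adjusted p = 0.64). ECM22, a relative of UPC2, fell by 1.47 on the log2 scale. The call of ARE2 was lost without day 19 replicate 2 or 3 or reference replicate 1, 2 or 3 (log2 change 1.51 to 2.09, adjusted p = 0.059 to 0.098). The call of UPC2 was lost without day 19 replicate 2 or 3 or reference replicate 1, 2 or 3 (log2 change 0.71 to 1.30, adjusted p = 0.076 to 0.16). Of 23 hypoxic and anaerobic genes 8 rose (34.8%) and 4 fell (17.4%), against 22.7% and 20.8% of all genes. The rises were 5 without day 19 replicate 3 or reference replicate 2 or 3, and the falls 2 without reference replicate 1 or 2. ROX1, the repressor of hypoxic genes, measured 11.69, 11.06 and 11.28 in the reference and 11.39, 13.70 and 13.63 at day 19. NCE103, carbonic anhydrase, measured 9.76, 10.03 and 10.39 in the reference and 13.75, 12.89 and 12.50 at day 19 and was above the reference on every array (log2 change 2.99, SE 0.36, adjusted p = 0.00015). HEM13, an oxygen-using enzyme of heme synthesis, measured 13.32, 13.16 and 13.22 in the reference and 10.43, 12.32 and 12.61 at day 19 (log2 change -1.45, SE 0.49, adjusted p = 0.032). The call of ROX1 was lost without day 19 replicate 2 or 3 or reference replicate 2 or 3 (log2 change 1.17 to 1.53, adjusted p = 0.076 to 0.11). The call of HEM13 was lost without day 19 replicate 1 or reference replicate 1, 2 or 3 (log2 change -1.48 to -0.77, adjusted p = 0.062 to 0.085).

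**Figure D4:**
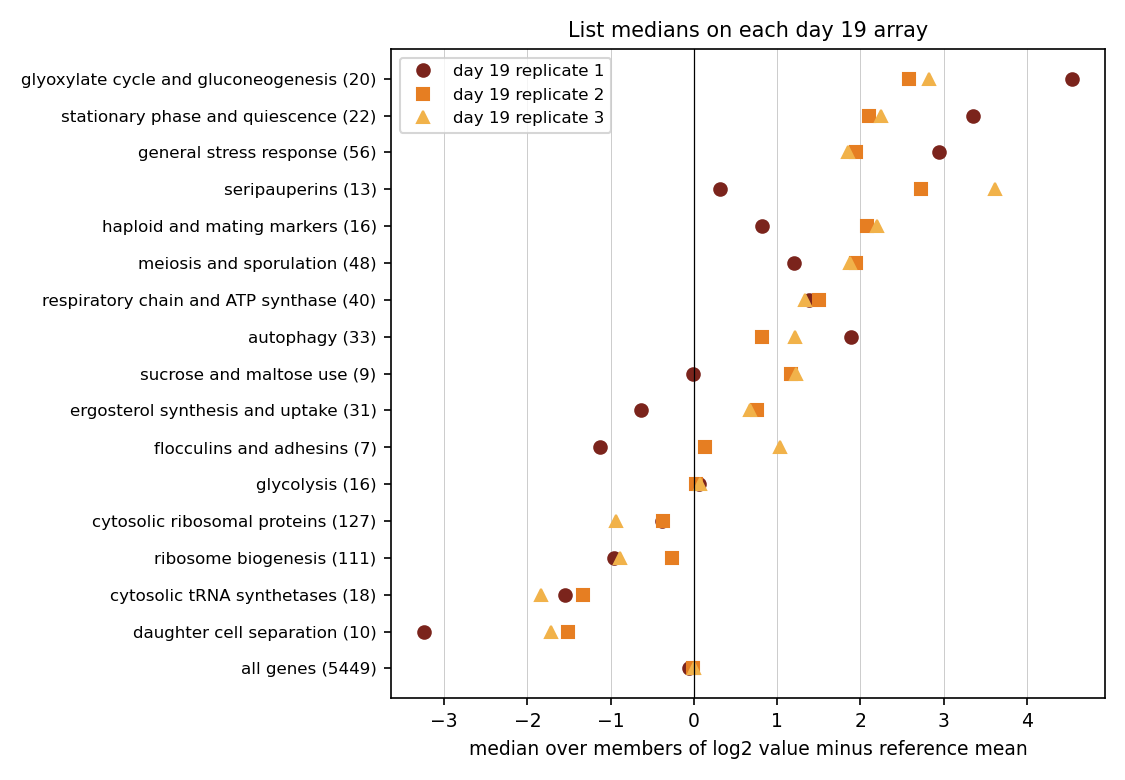
Median over the members of each list (number in brackets) of the log2 value minus the reference mean, for day 19 replicates 1, 2 and 3. Respiration is alike in all bottles (1.39, 1.504 and 1.34), while seripauperins (0.31, 2.72 and 3.62) and sterol genes (-0.64, 0.75 and 0.67) set replicate 1 apart.

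The genes that varied most among the day 19 bottles were named by their standard deviation over the 3 arrays. In most of them replicate 1 stood alone. HXT5, PMA2 and ADH2 were highest there by the values above, and so were RGI2 (14.24, 11.94 and 8.05), YDL218W (12.47, 7.19 and 6.68), an uncharacterised gene, FMP45 (13.32, 9.32 and 7.07), a membrane protein of sporulation and stress, and HBT1 (13.56, 8.34 and 8.01), a protein of cell shape in mating. DAN1, TIR1 and PAU7 were lowest in replicate 1, the last at 8.39, 13.65 and 13.27 and with shared probe sequence. HBT1 and FMP45 did not pass the test against the reference (adjusted p = 0.18 and 0.081), and neither did HXT5, PMA2 or TIR1. The standard deviations ran from 2.94 to 4.65 log2 units. The call of YDL218W was lost without reference replicate 1, 2 or 3 (log2 change 3.66 to 3.79, adjusted p = 0.063 to 0.074).

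The test of day 19 against the earlier bottles asked where the last bottles departed from the others. All 3 bottle groups were set against the same 3 reference arrays, so their changes from it are not independent. Against day 15, limma called 0 genes in either direction, while 600 genes (11.0%) had an unadjusted p under 0.05. Without day 19 replicate 1 the calls were 33 higher and 16 lower, without day 19 replicate 3 they were 0 and 1, and with arrays weighted by quality 514 and 290. Among the 33, SPS1, a kinase of spore wall formation, was higher by 2.54, and among the 16, SUC2 was lower by 1.63 on the log2 scale, both chosen after their values were seen. Changes from the reference lay side by side as follows. NCA3 changed by 5.27 at day 7, 5.56 at day 15 and 5.57 at day 19, and YAR068W by -5.87, -5.20 and -5.09. STL1 changed by 7.21, 5.01 and 4.797, and PAU5 by 1.31, 4.24 and 4.23. None of these 4 genes differed between day 19 and day 7 at adjusted p under 0.05 (STL1 0.24, PAU5 0.29, NCA3 0.6, YAR068W 0.2). Without day 19 replicate 1, limma called PAU5 higher at day 19 than at day 7 (log2 change 4.45, SE 0.61, adjusted p = 0.0048). STL1 was then called lower (log2 change -3.01, SE 0.76, adjusted p = 0.04). Replicate 1 was singled out from these same arrays, so these values are no separate test of the difference.

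Against day 7, 7 genes (0.128%) were higher at day 19 and 1 (0.0184%) lower, while 675 (12.4%) had an unadjusted p under 0.05. IZH4, a membrane protein of zinc and sterol metabolism, measured 6.98, 7.64 and 9.38 at day 7, 10.36, 11.71 and 12.09 at day 15 and 11.47, 12.25 and 12.64 at day 19. The day 7 bottles were the lowest and the later ones near or above the reference mean of 11.33 (log2 change from day 7 to day 19 4.12, SE 0.58, adjusted p = 0.022). FET3, the ferroxidase of high-affinity iron uptake, measured 6.14, 7.11 and 6.90 at day 7, 7.71, 9.25 and 9.63 at day 15 and 10.37, 9.23 and 9.26 at day 19 (log2 change 2.90, SE 0.47, adjusted p = 0.044). RNR3 measured 9.12, 9.08 and 8.95 at day 7, 9.28, 10.30 and 9.71 at day 15 and 11.001, 11.11 and 11.24 at day 19, with no overlap between day 19 and the earlier bottles (log2 change 2.07, SE 0.26, adjusted p = 0.014). FAA4, an acyl-CoA synthetase, was higher by 1.95, PLB2, a phospholipase B, by 1.80, MGA2, an activator of the desaturase gene, by 1.76 and GAS2, a glucanosyltransferase of the spore wall, by 1.28. FAA4 was still below the reference at day 19 (log2 change -1.04), and MGA2 did not differ from it by the test. YCH1, a phosphatase of the rhodanese fold, measured 10.12, 10.75 and 10.79 at day 7, 9.98, 9.42 and 9.86 at day 15 and 9.32, 8.76 and 8.40 at day 19 (log2 change -1.73, SE 0.28, adjusted p = 0.042). The counts rest on few arrays and on the fit, which pools the spread of the reference arrays too. They were 235 higher and 158 lower without day 19 replicate 1, and 22 and 12 without day 7 replicate 1. They were 2 and 0 without day 19 replicate 2 or day 7 replicate 2, and 3 and 0 without day 7 replicate 3. Without day 19 replicate 3 they were 0 and 0. With only the day 7 and day 19 arrays in the fit they were 0 and 0, and with replicate number added to the model 4 and 0.

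**Figure D5:**
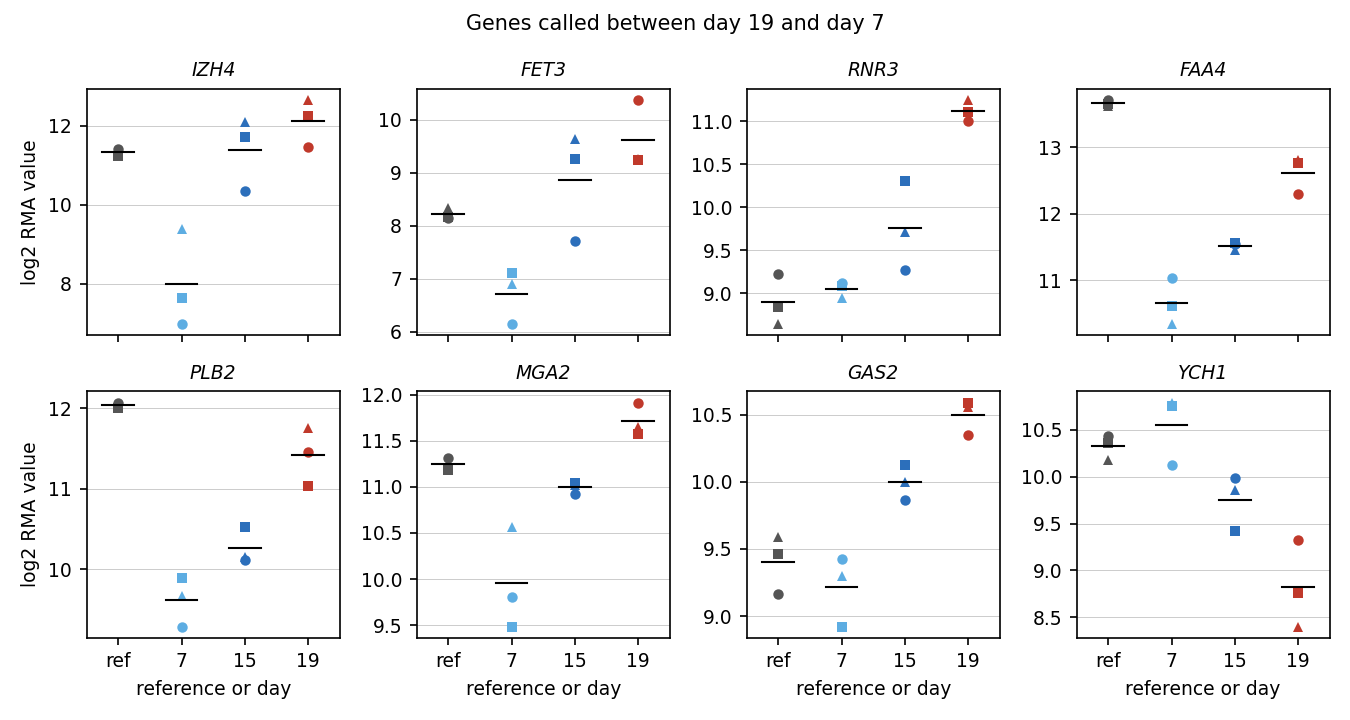
Log2 RMA values of the 8 genes called between day 19 and day 7 in the fit of all 12 arrays. Values are shown for the reference, day 7, day 15 and day 19 (vertical axes differ), with 1 symbol per replicate and a bar at each group's mean. IZH4 rises from a mean of 8.001 at day 7 to 12.12 at day 19, and YCH1 falls from 10.55 to 8.83.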

How the data were processed

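Total RNA was hybridised to single-colour Affymetrix Yeast Genome 2.0 arrays, with 5 µg of RNA labelled per array, per the labels' protocols. The deposited log2 values are the authors' RMA summaries of each probe set, background-corrected and normalized between arrays. RMA is named in the submitters' processing notes, and its version is not given in the sources used here. Of 10928 probe sets, 5498 paired with 1 S. cerevisiae gene, and the one with the highest mean was kept for each of 47 genes with several, leaving 5449 genes. The 1746 S. pombe probe sets, whose 0.95 quantile served as each array's background (mean 4.58), 1 with several genes and 3683 unnamed here were not tested.

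Tests came from limma 3.58.1 (R 4.3.3, lmFit and eBayes). All 12 arrays and 4 groups entered a single model, which left 8 residual and 3.42 prior degrees of freedom, and SE is limma's moderated standard error. Arrays have no read depth, and 3 per group limit the precision. "At least" marks rises of genes that no reference array measured above background.

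The comparison, the 47 gene lists (1499 entries, 45 not measured) and the naming rule were chosen with earlier results of these data known. The rule named the 15 largest called, non-overlapping changes each way. Their probe set names mark no shared sequence, and they lie above background on every array of the higher group. It also named up to 5 called members per list and 2 against its direction, and a short list of marker genes. Up to 8 genes per later comparison and the 10 widest spreads at day 19 were added. It covered 274 genes. The fit was also run on simulated data that gave every group the same spread per gene. The groups here differ in spread, so that run does not test the fit under these conditions, and no result rests on it. Promoter sequence was not analysed here. Figures were drawn with matplotlib 3.10.9.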

Additional observations from a re-analysis of the deposited data

Results flagged for a closer look

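The bottle groups were compared by a test of the difference itself, and 8 genes differed between day 19 and day 7 in the fit of all 12 arrays. With only the day 7 and day 19 arrays in the fit, 0 genes were called higher and 0 lower. The log2 difference, day 19 minus day 7, was 4.12 for IZH4, 2.90 for FET3, 2.07 for RNR3, 1.95 for FAA4, 1.80 for PLB2, 1.76 for MGA2, 1.28 for GAS2 and -1.73 for YCH1, by limma at adjusted p under 0.05. Between day 19 and day 15 limma called 0 genes, with 600 at an unadjusted p under 0.05. Signal also appeared outside the genes tested. The 17 ribosomal RNA control probe sets averaged 12.28 on the log2 scale at day 19, against 6.40 in the reference. No test for outlying samples was run gene by gene, since each group has 3 arrays. The array that stood apart over all genes and the genes with the widest spread at day 19 are given above.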

How the results depend on the processing

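The counts of 1238 higher and 1134 lower genes against the reference ran from 871 to 1303 and from 711 to 1153 when 1 array was left out. They were 751 and 560 at adjusted p under 0.01, which is stricter by construction, and 928 and 742 with a 2-fold minimum. Against day 15, where 0 genes were called, leaving out 1 array gave 0 to 33 higher and 0 to 16 lower genes, and array weights gave 514 and 290. Against day 7, with 7 higher and 1 lower, leaving out 1 array gave 0 to 235 and 0 to 158. Array weights gave 251 and 193, only the groups compared 0 and 0, and adjusted p under 0.01 1 and 0. Median centring gave 2 lower, and trend and robust settings 3, as did removing the trend on coding length. The causes were not tested. The other planned settings, except the replicate block, kept each of these counts within 1.5 times.

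By the rule that every pair's correlation must exceed 0.1, replicate numbers were not taken to pair the samples. Across genes, deviations of same-numbered arrays correlated at r = -0.05, 0.12 and 0.01 for day 19 and the reference, -0.15, -0.04 and -0.01 for day 19 and day 15, and 0.41, 0.35 and 0.06 for day 19 and day 7. Day 19 replicates 1 and 2 correlated best with their own number at day 7, and replicate 3 with day 7 replicate 2 (0.39). With the replicate block, 1241 genes were higher and 1098 lower against the reference, and 4 and 0 against day 7.

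Of 255 called named genes, 189 kept their call under every alternative and 66 lost it at least once, and none reversed. Leaving out an array also changes the spread pooled over all groups, so a call can be lost while its log2 change stays. Among single genes the sign turned only for uncalled values. PDC1 was 0.025 with S. pombe centring and 0.019 with the length trend removed. Some list medians near zero also turned sign. The median of glycolysis was -0.036 with that trend removed and -0.049 after quantile normalization. Without day 19 replicate 1 the median of the signalling list went from 0.07 to -0.25. The cell wall median then went from -0.04 to 0.17, and the hypoxic median from -0.007 to 0.045. Over arrays left out ADH1 ran from -0.17 to 0.049, GPD1 from -0.56 to 0.13 and PMA2 from -0.54 to 2.44.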
